A study of Mus musculus with 30 samples.

Results

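The genes described here are 9 targets of the type I interferon response, *Isg15*, *Ifit1*, *Ifit3*, *Oasl2*, *Rsad2*, *Usp18*, *Irf7*, *Stat2* and *Irf9*, chosen by name from the 46078 genes of the counts table. RNA had been sequenced from the scraped epithelial layer of the colon of wild-type C57BL/6J mice, 5 to 10 weeks old at the start, in 30 libraries of 6 groups, with 5 mice of 1 sex per group and 1 library per mouse. AOM/DSS-treated mice received the carcinogen azoxymethane (AOM, 10 mg/kg) by 1 injection into the peritoneum and then 3 cycles of dextran sulfate sodium (DSS, an irritant that causes colitis, 2.5% in drinking water), and were killed at 9 or 15 weeks. Vehicle-treated mice received saline only and were killed at 9 weeks. Both time points therefore share the same 10 vehicle libraries, and at 15 weeks treatment and elapsed time cannot be told apart. The scrape can hold cells other than epithelium.

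Type I interferons signal through a receptor on nearly every cell, whose kinases activate STAT2. STAT2 and IRF9 are parts of the complex ISGF3, which binds the interferon-stimulated response element (ISRE) in target promoters and raises antiviral effectors, the sensors that start the response and its own brake USP18. Type III interferon, which acts mainly on epithelium, uses the same complex, and interferon-gamma, made mostly by lymphocytes, has a receptor of its own and raises many of the same genes, so a target's level does not name the ligand.

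The promoters are shown because the ISRE is the element these genes are known to share. In RefSeq promoter windows on GRCm38.p6, from 250 bases before to 50 bases after the start, the ISRE core, read as GAAA, any 2 bases and GAAA, was searched on both strands, which on the other strand reads TTTC, any 2 bases and TTTC, and overlapping matches were each counted. Of the 9 members 8 had a window, and *Usp18* had none. The core was found in 5 of the 8 (62.5%), in *Isg15*, *Ifit1*, *Ifit3*, *Rsad2* and *Stat2*, and not in those of *Oasl2*, *Irf7* and *Irf9*. *Irf9* had 2 windows, which begin at 55603735 and 55604329 on chromosome 14. Both lie inside the gene as the authors' annotation places it, from 55603571 on the plus strand, so the bases before that position were not searched. Of all 27025 genes with a window 1079 (3.993%) held it, as did 13 of 32 among other interferon-stimulated genes and 11 of 14 among genes led by interferon-gamma. Positions are those of a match's first base from the start. In *Isg15* 3 matches overlapped, at -78, -72 and -66, and *Ifit1* held TTTCACTTTC at -104 and TTTCAGTTTC at -85. The same 2 decamers stood at -156 and -122 in *Ifit3*, and single matches at -120 in *Rsad2* and at -222 in *Stat2*. A match describes letters only, and binding was not measured. The 250 bases before the start of 4 members follow, 5′ to 3′ on the strand of the gene, with the ISRE matches in capitals.
*Isg15* (chr4:156200819-156201068, minus strand): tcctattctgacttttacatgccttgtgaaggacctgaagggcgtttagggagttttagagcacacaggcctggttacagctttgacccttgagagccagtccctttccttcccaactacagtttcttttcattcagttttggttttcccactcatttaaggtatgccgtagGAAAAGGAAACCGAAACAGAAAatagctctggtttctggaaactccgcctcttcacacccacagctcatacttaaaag
*Ifit3* (chr19:34583279-34583528, plus strand): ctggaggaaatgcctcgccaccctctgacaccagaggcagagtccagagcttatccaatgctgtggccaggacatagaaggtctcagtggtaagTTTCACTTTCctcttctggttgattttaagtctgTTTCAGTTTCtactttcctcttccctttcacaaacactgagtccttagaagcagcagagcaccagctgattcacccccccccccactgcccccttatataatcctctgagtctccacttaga
*Rsad2* (chr12:26456453-26456702, minus strand): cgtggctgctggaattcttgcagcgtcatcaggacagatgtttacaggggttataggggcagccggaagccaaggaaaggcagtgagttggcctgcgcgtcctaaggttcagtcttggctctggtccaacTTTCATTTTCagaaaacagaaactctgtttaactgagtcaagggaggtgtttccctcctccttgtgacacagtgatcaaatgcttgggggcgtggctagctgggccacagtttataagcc
*Stat2* (chr10:128270248-128270497, plus strand): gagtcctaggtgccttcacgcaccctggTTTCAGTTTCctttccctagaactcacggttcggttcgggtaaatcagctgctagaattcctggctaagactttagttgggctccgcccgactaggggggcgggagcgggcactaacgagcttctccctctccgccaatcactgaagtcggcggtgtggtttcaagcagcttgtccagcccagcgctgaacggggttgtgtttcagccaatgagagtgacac

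On GRCm38, the authors' annotation places *Isg15* (ENSMUSG00000035692) on chromosome 4 at 156199424 to 156200818, *Usp18* (ENSMUSG00000030107) on chromosome 6 at 121245906 to 121270916 and *Irf7* (ENSMUSG00000025498) on chromosome 7 at 141262706 to 141266481. *Oasl2* (ENSMUSG00000029561) lies on chromosome 5 at 114896936 to 114912234 and *Rsad2* (ENSMUSG00000020641) on chromosome 12 at 26442753 to 26456452. *Stat2* (ENSMUSG00000040033) lies on chromosome 10 at 128270576 to 128292849 and *Irf9* (ENSMUSG00000002325) on chromosome 14 at 55603571 to 55610030. *Isg15*, *Rsad2* and *Irf7* are on the minus strand and the others on the plus strand. *Ifit3* (ENSMUSG00000074896) at 34583531 to 34588731 and *Ifit1* (ENSMUSG00000034459) at 34640871 to 34650009 lie close together on chromosome 19. *Ifit3* is nearly identical to *Ifit3b*, and its part of the counts on both ran from 50.6% to 80.0% over the libraries, so its level is uncertain.

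Counts on genes ran from 9.27 M to 30.8 M per library with a median of 24.7 M, and all 9 members passed the filter on low counts, which kept 16261 genes. The smallest count of any member in any library was 5, for *Usp18*. Values compared between libraries are CPM, counts per 1000000 counts of the library, after trimmed-mean (TMM) scaling. The summed levels of cell type markers are the exception and are CPM without TMM scaling. A member is called when its adjusted p from edgeR's quasi-likelihood test is under 0.05, its log2 fold change (log2FC) is beyond 0.4 and its mean FPKM (fragments per kilobase and 1000000 reads) is at least 1 in a compared group. The ranges of 2 groups do not overlap when every library of one lies above every library of the other. In bulk tissue fewer cells of a type and less RNA per cell cannot be told apart. All 10 colon epithelium markers, among them *Epcam* and *Krt8*, were detected in each group, with summed levels of 14990 to 40460 CPM. Summed mesenchyme markers were 5751 CPM in male vehicle replicate 1 and at most 356 CPM in the AOM/DSS libraries. Where a count of members or cell type markers called changed without this library, the count without it is also given.

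After 9 weeks of AOM/DSS, 8 of the 9 members rose with the sexes pooled, against 5.51% of all tested genes called higher. The largest increases were those of *Usp18*, the protease that removes ISG15 from proteins and blocks the interferon receptor, *Isg15*, the ubiquitin-like modifier, and *Oasl2*, an antiviral protein related to the oligoadenylate synthetases. *Irf7*, the factor that amplifies interferon production, was the member not called. In 5 members (*Irf9*, *Isg15*, *Oasl2*, *Stat2* and *Usp18*) every one of the 10 AOM/DSS libraries lay above all 10 vehicle libraries, against 0.935% of tested genes. Without male vehicle replicate 1 the count was also 8. The median log2FC of the members was 1.24, beside -0.02 over all tested genes.

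*Isg15* measured 3.63, 8.07, 11.8, 4.15 and 4.16 CPM in the vehicle-treated females (replicates 1 to 5) and 2.41, 5.40, 5.62, 7.05 and 8.07 CPM in the males. At 9 weeks it measured 30.7, 23.0, 17.4, 28.2 and 12.1 CPM in females and 41.0, 49.7, 47.2, 28.7 and 24.1 CPM in males. The lowest AOM/DSS library, female replicate 5, was just above the highest vehicle library, female replicate 3. The log2FC was 2.27 ± 0.29 (SE, 10 against 10 libraries, adjusted p = 2.62e-06).

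*Usp18* measured 0.775, 3.57, 3.74, 1.41 and 0.533 CPM in vehicle-treated females and 1.72, 2.23, 1.39, 2.42 and 2.13 CPM in males. At 9 weeks the values were 15.4, 11.5, 8.67, 13.6 and 5.11 CPM in females and 17.1, 23.7, 19.1, 14.3 and 9.69 CPM in males. Replicate 5 was again the lowest of both AOM/DSS groups, and no treated library reached down to the vehicle range. Its log2FC of 2.74 ± 0.32 (adjusted p = 8.47e-07) was the highest of the members.

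Of the antiviral effectors, *Oasl2* measured 24.7, 54.1, 79.4, 37.2 and 31.5 CPM in vehicle-treated females and 16.1, 35.6, 36.7, 34.1 and 37.3 CPM in males. At 9 weeks *Oasl2* ran from 102.4 to 167.3 CPM in the 5 females and measured 167.7, 254.8, 166.1, 104.5 and 99.6 CPM in males. Male vehicle replicate 1 was low, and the lowest treated library, male replicate 5, stood above every vehicle library. The log2FC was 1.88 ± 0.21 (adjusted p = 5.28e-07).

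*Ifit1* and *Ifit3* belong to the family of tetratricopeptide proteins that bind viral RNA. *Ifit1* measured 6.90, 36.7, 45.2, 11.4 and 22.9 CPM in vehicle-treated females and 7.16, 11.1, 20.5, 15.7 and 19.9 CPM in males. The 9-week libraries measured 51.5, 46.3, 39.6, 59.0 and 61.8 CPM in females and 66.8, 72.0, 63.2, 54.6 and 34.6 CPM in males. In females the groups overlapped through vehicle replicate 3, and in males they did not. The log2FC was 1.52 ± 0.27 (adjusted p = 0.000251). *Ifit3* measured 1.76, 8.07, 9.62, 1.77 and 2.56 CPM in vehicle-treated females and 5.95, 2.95, 4.83, 4.53 and 6.20 CPM in males. At 9 weeks it measured 11.3, 9.64, 8.11, 10.3 and 14.5 CPM in females and 14.9, 13.2, 16.1, 10.7 and 6.56 CPM in males. For both genes 8 of the 10 treated libraries lay above the highest vehicle library, female replicate 3. The log2FC of *Ifit3* was 1.24 ± 0.31 (adjusted p = 0.00613), and that of its copy *Ifit3b* 1.45 ± 0.31.

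*Rsad2* encodes viperin, an enzyme that makes a chain terminator of viral RNA synthesis. It measured 9.97, 24.5, 28.4, 12.2 and 10.8 CPM in vehicle-treated females and 7.13, 12.4, 13.5, 15.5 and 17.96 CPM in males. The 9-week libraries measured 19.5, 20.0, 25.1, 27.9 and 17.95 CPM in females and 35.5, 31.3, 30.9, 33.4 and 19.7 CPM in males. The male groups did not overlap, while none of the 5 treated females exceeded the highest vehicle-treated female. The pooled log2FC was 0.77 ± 0.22 (adjusted p = 0.0166).

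The signalling members *Stat2* and *Irf9* had the smallest SEs of the 9 members. *Stat2* measured 48.4, 52.0, 50.3, 41.9 and 34.1 CPM in vehicle-treated females and 32.0, 52.8, 47.1, 43.4 and 46.0 CPM in males. At 9 weeks it measured 100.5, 78.5, 72.0, 89.3 and 56.7 CPM in females and 88.4, 122.6, 106.1, 78.6 and 87.5 CPM in males. All 10 treated libraries lay above the highest vehicle library, with a log2FC of 0.97 ± 0.13 (adjusted p = 4.31e-06). *Irf9*, the DNA-binding part of ISGF3, measured 35.1, 35.8, 43.9, 37.8 and 34.1 CPM in vehicle-treated females and 35.6, 40.6, 35.8, 37.6 and 46.2 CPM in males. The 9-week libraries measured 67.6, 62.2, 54.3, 66.7 and 54.9 CPM in females and 82.2, 78.0, 87.5, 64.1 and 62.1 CPM in males. These groups did not overlap either, and the log2FC of 0.82 ± 0.08 had the lowest adjusted p of the 9 (4.79e-08).

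*Irf7* measured 66.8, 196.6, 291.3, 122.1 and 142.5 CPM in vehicle-treated females and 111.8, 131.0, 109.4, 138.6 and 469.7 CPM in females at 9 weeks. In males it measured 59.3, 90.3, 135.1, 94.8 and 60.6 CPM with vehicle and 193.6, 191.6, 193.4, 161.4 and 139.3 CPM at 9 weeks. The male groups did not overlap, whereas 4 of the 5 treated females lay below the female vehicle median of 142.5 CPM and 1 stood far above it. Pooled, the log2FC of *Irf7* was 0.61 ± 0.27 (adjusted p = 0.123). Without female vehicle replicate 3 it was 0.77 (adjusted p = 0.0496), and without female 9-week replicate 5 it was 0.28 (adjusted p = 0.396).

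**Figure D1:**
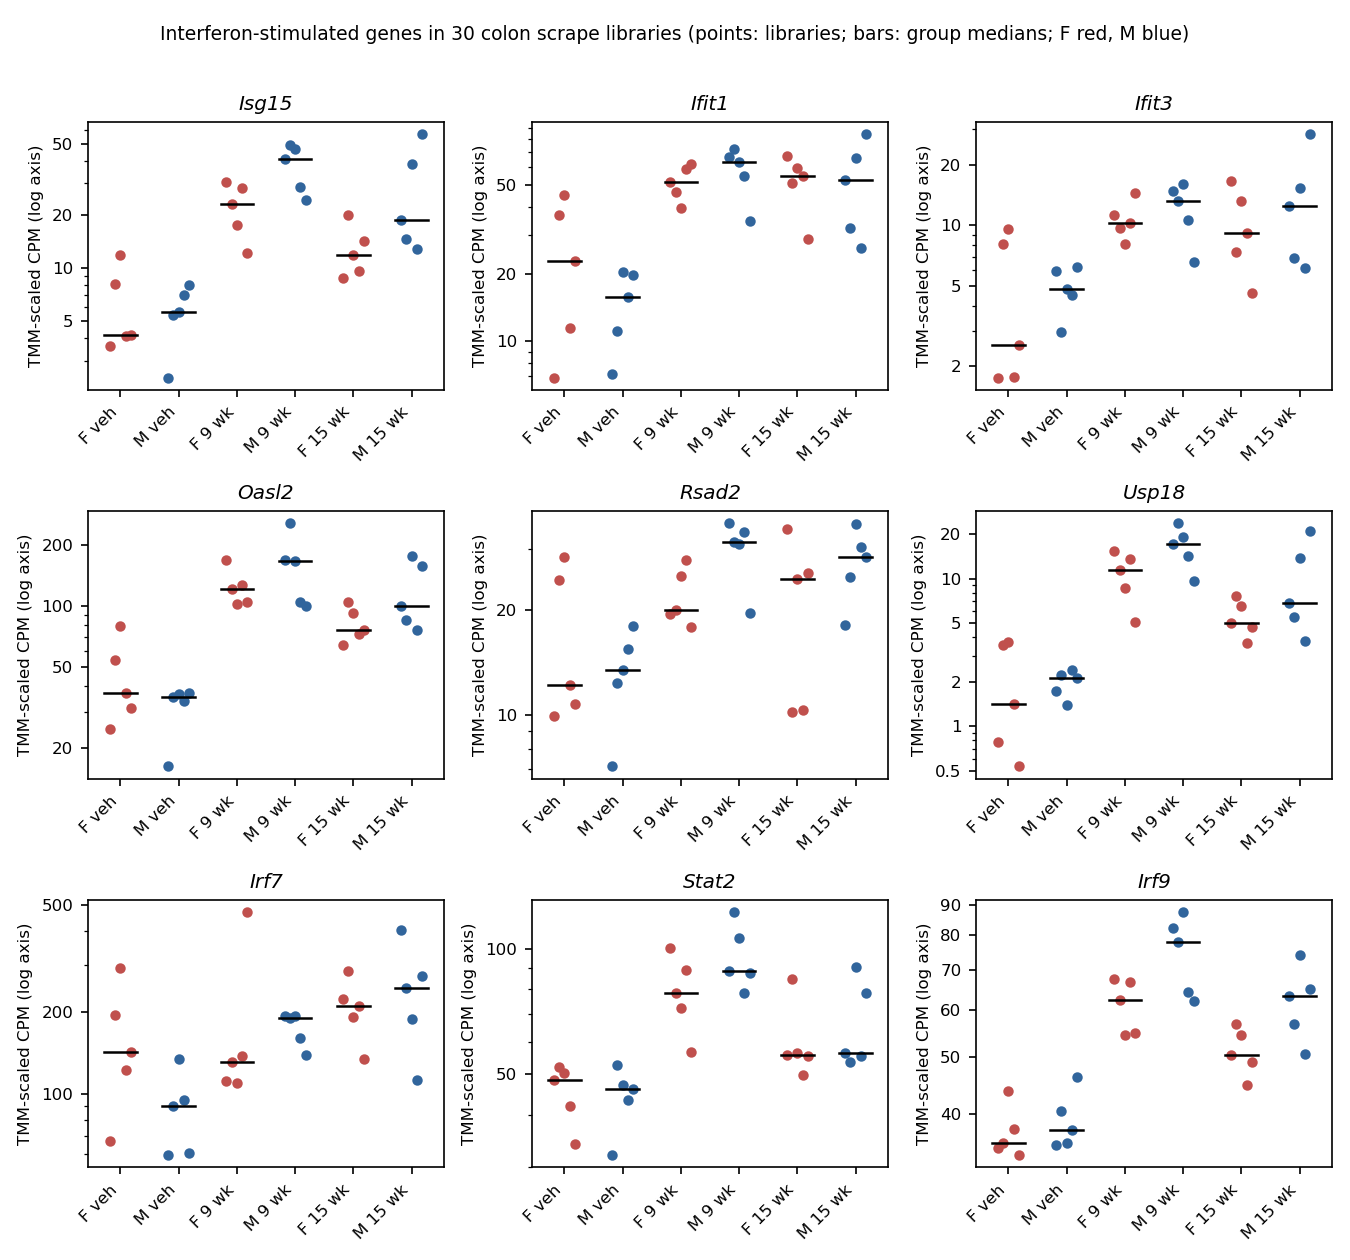
TMM-scaled CPM of the 9 members (log axes) in the 6 groups, vehicle, 9 weeks and 15 weeks in females (F, red) and males (M, blue), with 1 point per library and a bar at the group median. At 9 weeks all 5 male libraries lie above the male vehicle libraries in every panel, and in *Irf7* 1 female library of 470 CPM stands apart.

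At 15 weeks all 9 members were called higher than vehicle with the sexes pooled, against 3.46% of tested genes. The ranges of AOM/DSS and vehicle overlapped in all 9, where 0.166% of tested genes did not overlap upward. *Usp18* (log2FC 1.89 ± 0.32, adjusted p = 0.000355), *Isg15* (1.66 ± 0.28, adjusted p = 0.000424) and *Ifit1* (1.45 ± 0.27, adjusted p = 0.00113) had the largest changes, and *Stat2* the smallest (0.50 ± 0.13, adjusted p = 0.00951). *Oasl2* (1.37 ± 0.21), *Ifit3* (1.29 ± 0.31), *Irf7* (0.92 ± 0.27), *Rsad2* (0.66 ± 0.22) and *Irf9* (0.56 ± 0.08) lay between them. The median of the members was 1.29, beside -0.03 over all tested genes.

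*Isg15* at 15 weeks measured 8.77, 19.9, 11.9, 9.56 and 14.3 CPM in females and 18.8, 14.5, 38.5, 12.8 and 56.7 CPM in males. All 10 libraries lay above the vehicle median of 5.51 CPM, and 8 above the highest vehicle library. *Usp18* measured 4.98, 7.61, 6.54, 3.67 and 4.67 CPM in females and 6.82, 5.51, 13.8, 3.79 and 21.0 CPM in males. Male replicates 3 and 5 stood above the other males in both genes.

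*Oasl2* at 15 weeks measured 64.3, 104.3, 92.1, 72.4 and 76.2 CPM in females and 100.1, 85.5, 175.2, 76.1 and 157.6 CPM in males, with 6 of 10 libraries above the highest vehicle library. *Ifit1* measured 67.4, 51.0, 59.6, 54.8 and 28.7 CPM in females and 52.7, 32.3, 66.1, 26.0 and 84.1 CPM in males, with 7 of 10 above it. *Ifit3* measured 16.6, 7.40, 13.2, 9.17 and 4.63 CPM in females and 12.4, 6.90, 15.2, 6.13 and 28.2 CPM in males, with 5 of 10 above it. In males replicates 3 and 5 were again high and replicate 4 was the lowest for these 3 genes. *Rsad2* measured 34.2, 10.2, 24.6, 10.3 and 25.6 CPM in females and 18.1, 24.9, 35.2, 30.4 and 28.4 CPM in males. Female replicates 2 and 4 lay below the female vehicle median, and all 5 males lay above every vehicle-treated male.

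*Stat2* at 15 weeks measured 55.8, 85.0, 56.3, 49.9 and 55.3 CPM in females and 56.4, 53.5, 90.5, 55.3 and 78.7 CPM in males. Female replicate 2 and male replicates 3 and 5 stood high, and the others measured 49.9 to 56.4 CPM, next to the highest vehicle library of 52.8 CPM. *Irf9* measured 50.3, 56.7, 54.3, 44.8 and 49.1 CPM in females and 63.2, 56.7, 74.1, 50.6 and 65.0 CPM in males, so that in both sexes every treated library exceeded the vehicle libraries of that sex. *Irf7* measured 224.7, 283.7, 193.2, 211.7 and 135.1 CPM in females and 405.2, 246.8, 189.5, 112.6 and 271.8 CPM in males, and 1 library, male replicate 1, exceeded the highest vehicle library of 291.3 CPM.

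The call of *Rsad2* at 15 weeks (adjusted p = 0.0390) was lost in 11 of the 20 fits that left out 1 library, with an adjusted p of up to 0.0797. Over the 20 fits its log2FC ran from 0.55 to 0.79. The libraries whose omission lost the call were female vehicle replicates 1, 4 and 5, male vehicle replicates 1, 2 and 3, female 15-week replicates 1, 3 and 5, and male 15-week replicates 3 and 5. With the replicate number as a block *Rsad2* was not called either, which left 8 members.

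On the deposited TPM scale 0 of the 9 members were called at 15 weeks, by limma on log2(TPM + 1). On that scale the mitochondrial gene *mt-Nd4l* took from 39.2% to 58.1% of each library's total from 14 to 148 counts. The median change of the 13115 tested genes with TPM above 0 in every library lay at -0.32 between 15 weeks and vehicle. With each library's TPM rescaled by its median ratio over these 13115 genes, an alternative added after the data had been seen, the count was 9 of 9. Changes on both TPM scales are plotted beside those from counts, and outside such checks TPM is used only to order genes within a library.

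**Figure D2:**
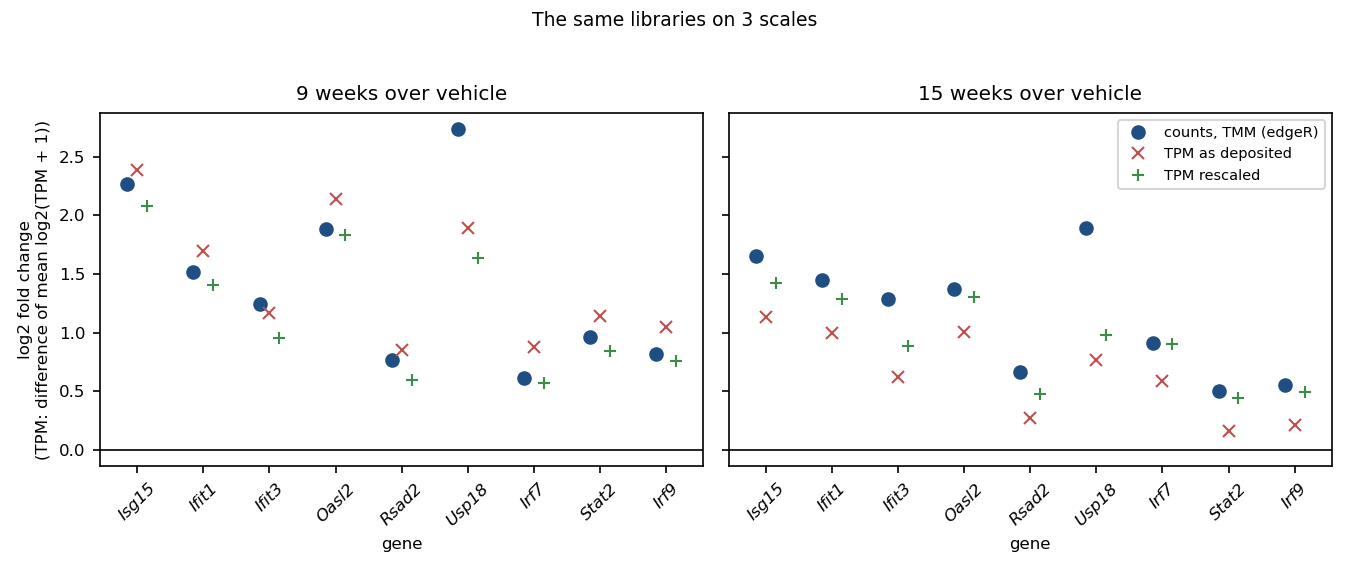
Change of each member against vehicle at 9 weeks (left) and 15 weeks (right), sexes pooled, as edgeR log2FC from TMM-scaled counts (circles) and as the difference of mean log2(TPM + 1) from TPM as deposited (x) and after rescaling of each library (+). At 15 weeks the deposited TPM values lie below both others for all 9 members, with *Stat2* at 0.17 against 0.50 from counts.

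Between 15 and 9 weeks of AOM/DSS, 1 of 9 members was called, *Stat2*, which fell by 0.46 ± 0.13 on the log2 scale (adjusted p = 0.0360), against 1.91% of tested genes called lower and 0.418% called higher. At an unadjusted p under 0.05 there were 5 members, beside 23.7% of tested genes. Of the other members *Usp18* had a log2FC of -0.85 ± 0.30 (adjusted p = 0.0902), *Isg15* of -0.61 ± 0.27 (adjusted p = 0.173) and *Oasl2* of -0.51 ± 0.21 (adjusted p = 0.135). *Irf9* passed the p threshold (adjusted p = 0.0464) with a log2FC of -0.27 ± 0.08, within the fold threshold. *Ifit1* (-0.07 ± 0.26), *Ifit3* (0.05 ± 0.30), *Rsad2* (-0.11 ± 0.22) and *Irf7* (0.30 ± 0.27) had adjusted p of 0.497 to 0.940. The call of *Stat2* was lost in 12 of 20 fits that left out 1 library (adjusted p up to 0.0814), which were female 9-week replicates 1, 2 and 4, male 9-week replicates 1, 2 and 3, female 15-week replicates 1, 3 and 4, and male 15-week replicates 1, 2 and 4. Without female 9-week replicate 5, 3 members were called, *Stat2*, *Usp18* (-0.92, adjusted p = 0.0357) and, in the higher direction, *Irf7* (0.64, adjusted p = 0.0469). Without male 15-week replicate 5, *Usp18* was called as well (-1.05, adjusted p = 0.0319).

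To see whether the response was shared by the sexes, each was compared with its own vehicle group of 5. In males 7 of 9 members were called higher at 9 weeks (background 4.42%), and all 9 had groups that did not overlap (background 5.55%). *Ifit3* (log2FC 1.32 ± 0.44, adjusted p = 0.0530) and *Irf7* (adjusted p = 0.0937) missed the threshold. In females 5 of 9 were called (background 2.42%), *Irf9*, *Isg15*, *Oasl2*, *Stat2* and *Usp18*, the 5 whose female groups did not overlap (background 2.71%), and with the mean log2 level of 10 pan-leukocyte markers as a covariate 0 were called in females by edgeR. The female log2FC was 2.39 ± 0.45 for *Usp18*, 1.80 ± 0.40 for *Isg15*, 0.36 ± 0.31 for *Rsad2* and 0.23 ± 0.38 for *Irf7*. Without female 9-week replicate 5 the female value of *Irf7* was -0.43 (adjusted p = 0.445). Without male vehicle replicate 1, 6 members were called in males, *Rsad2* being lost (adjusted p = 0.0557), and without male 9-week replicate 5 *Ifit3* was called as well (adjusted p = 0.0374).

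At 15 weeks all 9 members were called in males (background 4.37%), and in 7 the male groups did not overlap (background 2.88%). The male log2FC ran from 0.60 ± 0.18 for *Stat2* to 2.37 ± 0.45 for *Usp18*, and that of *Irf7* was 1.48 ± 0.39 (adjusted p = 0.0131). Without male vehicle replicate 1, 5 members were called in males, *Stat2*, *Rsad2*, *Ifit3* and *Irf7* being lost (adjusted p = 0.0505 to 0.0984). The same 4 were lost when the compared groups were fitted alone, and with the colon epithelium markers as a covariate these 4 and *Ifit1* were, which left 4 called. *Ifit3* was also lost without male vehicle replicate 2 (adjusted p = 0.0508), *Stat2* and *Rsad2* without male 15-week replicate 3, and *Stat2* and *Ifit3* without male 15-week replicate 5. In females edgeR called 0 of 9 members at 15 weeks (background 0.0861%), with 7 at an unadjusted p under 0.05, where 10.9% of tested genes had one, and DESeq2 called 1, *Irf9* (adjusted p = 0.0169). The female log2FC was 1.41 ± 0.44 for *Usp18* (adjusted p = 0.262), 1.08 ± 0.38 for *Ifit1* (adjusted p = 0.314) and 0.45 ± 0.11 for *Irf9* (adjusted p = 0.101), and *Irf9* alone did not overlap (background 1.09%).

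The difference between the male and the female response was tested itself as an interaction. It was positive for all 9 members at both times, from 0.16 to 0.95 at 9 weeks and from 0.19 to 1.31 at 15 weeks on the log2 scale. These signs are not independent, because both times share the vehicle libraries and the members moved together within groups. Without female vehicle replicate 3 the female log2FC of *Ifit3* was 1.59 at 9 weeks and 1.51 at 15 weeks. These lie above its male values of 1.32 and 1.49 in the fit of all libraries, so the sign for *Ifit3* depends on that library. By edgeR 0 of 9 were called at either time, with 1 (*Oasl2*, 0.86 ± 0.41) and 3 (*Isg15* 1.31 ± 0.56, *Oasl2* 1.05 ± 0.42 and *Irf7* 1.12 ± 0.54) at an unadjusted p under 0.05, and DESeq2 called 0. Among all tested genes 0% were called and 7.41% and 7.66% had an unadjusted p under 0.05. Direct comparison of males with females called 0 of 9 members in vehicle, at 9 weeks and at 15 weeks by edgeR and by DESeq2, where 0.178%, 0.0492% and 0.184% of tested genes were called, with 1, 1 and 3 members at an unadjusted p under 0.05, beside 18.7%, 3.87% and 12.4% of tested genes. In vehicle the member with the largest difference was *Irf7*, at -0.90 ± 0.38 in males over females (adjusted p = 0.199).

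**Figure D3:**
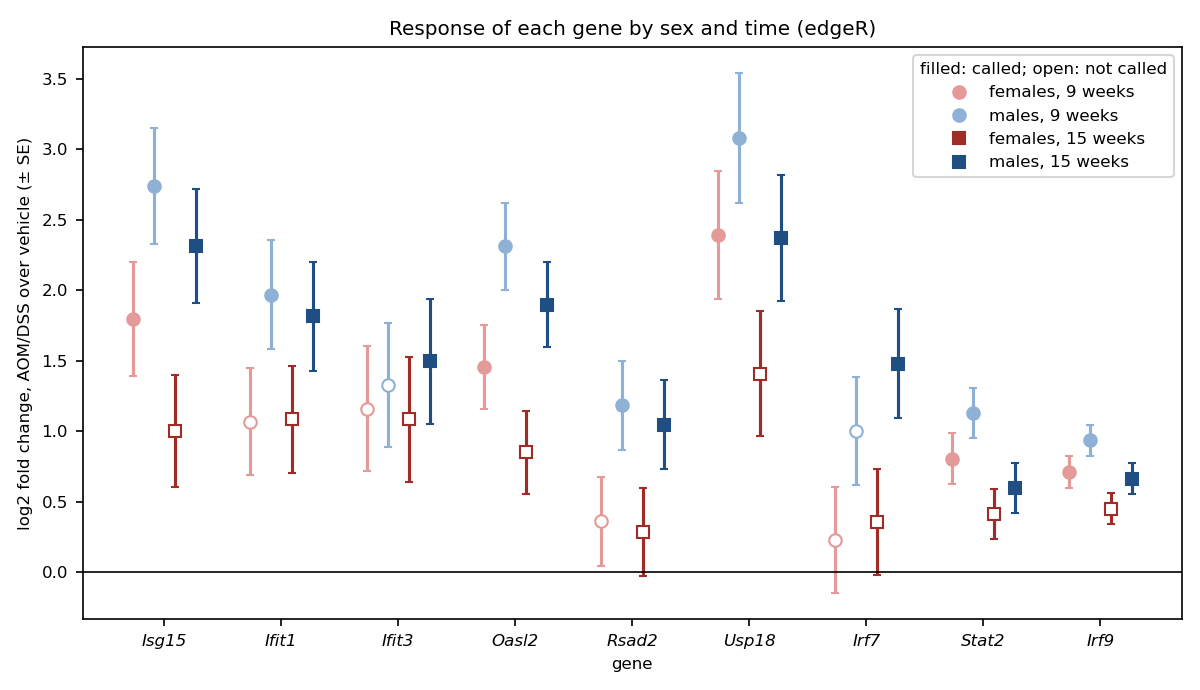
log2FC of each member over the vehicle group of the same sex, with its SE as a bar, at 9 weeks (circles) and 15 weeks (squares) in females (red) and males (blue), 5 against 5 libraries each. Filled symbols were called and open symbols were not. With all libraries used, the male value lies above the female value for every member at both times, while 0 interactions were called.

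Within groups the members moved together, and libraries differed. Over the 30 libraries the median Pearson correlation of log2 CPM between members was 0.75, and 0.53 after group means were removed, values that share library and depth and are descriptions only. *Isg15* and *Oasl2* were the closest pair (r = 0.96, and 0.90 with group means removed), and *Irf7* was the member least like the others (median r = 0.44 and 0.22). Female vehicle replicate 3 was the highest of its group for 8 of 9 members, and female vehicle replicate 1 the lowest for 6. Male vehicle replicate 1 was the lowest of its group for 7 members, male 9-week replicate 5 for 8 and male 15-week replicate 4 for 7. Male 15-week replicates 3 and 5 were each the highest for 4.

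**Figure D4:**
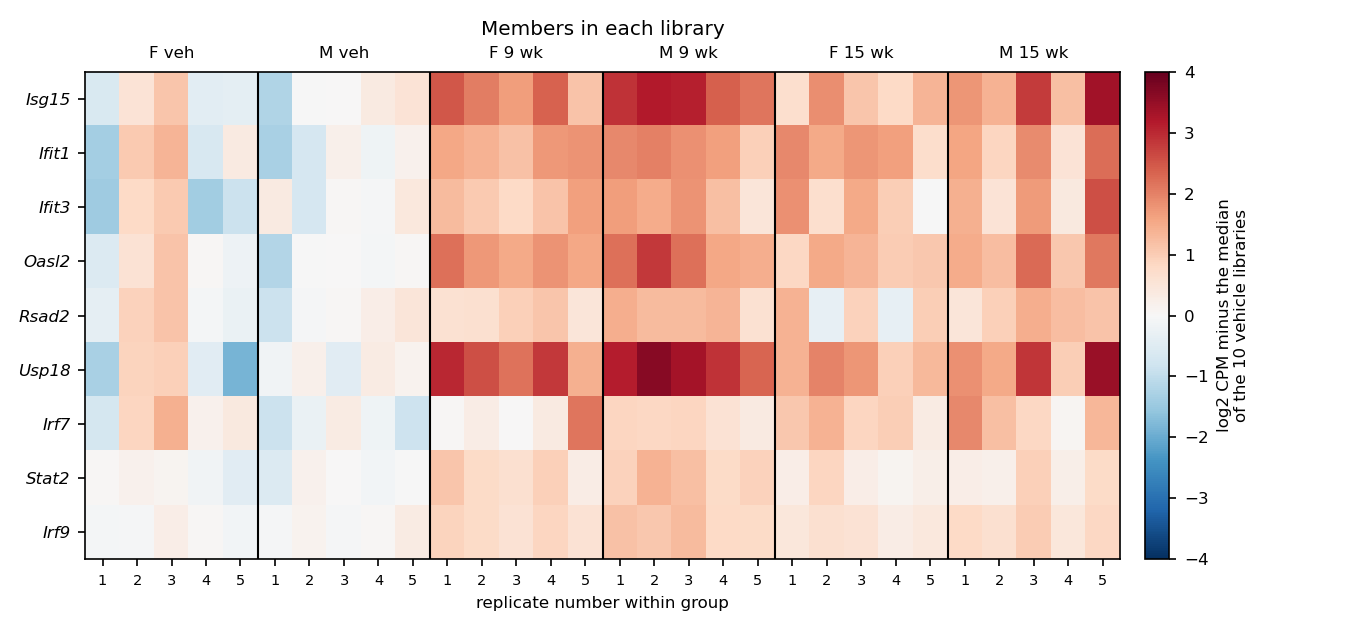
log2 CPM of each member (rows) in each of the 30 libraries (columns, replicate number within group) minus the median of the 10 vehicle libraries, on a colour scale from -4 (blue) to 4 (red). The 9-week columns are red for most members, vehicle columns differ among themselves, with female replicate 3 high and male replicate 1 low, and male 15-week replicates 3 and 5 are darker than their neighbours.

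By TPM, the deposited scale that corrects for transcript length, *Irf7* had the highest median level of the members in each condition, 31.0 TPM in vehicle, 59.1 at 9 weeks and 56.2 at 15 weeks, values that are not set against each other because of the scale described above. In vehicle it lay above *Irf9*, the next in order at 7.68 TPM, in 10 of 10 libraries without overlap. *Oasl2* (6.15), *Stat2* (5.83), *Ifit1* (3.97), *Isg15* (3.23), *Rsad2* (1.69), *Ifit3* (1.63) and *Usp18* (0.646) followed in vehicle, each overlapping its neighbour. Within libraries, *Isg15* was above *Rsad2* and *Ifit3* above *Usp18* in 10 of 10, whereas *Ifit1* was above *Isg15* in 4 of 10. At 9 weeks *Oasl2* (33.7) and *Isg15* (24.9) stood next to *Irf7*, and at 15 weeks *Oasl2* (15.9) and *Irf9* (8.87) did.

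Upstream of these genes, the type I interferon ligands were hardly seen. Of 17 ligand genes 16, *Ifnb1* and the *Ifna* genes among them, had no count in any of the 30 libraries, and *Ifnk*, a type I interferon of skin, had 8 counts in all. The type III ligands *Ifnl2* and *Ifnl3* had 2 counts each. These libraries were made from poly(A) RNA, and expression below this depth was not detectable. *Ifng*, which encodes interferon-gamma, had 2 counts in the vehicle libraries, 290 at 9 weeks, 116 of them in 1 library, and 20 at 15 weeks, and was below the FPKM minimum. Of 9 receptor chains and receptor kinases, 1 was called at 9 weeks, beside 5.51% of tested genes called higher. It was *Ifnar2*, the signalling chain of the type I receptor (log2FC 0.67 ± 0.16, adjusted p = 0.00452). At 15 weeks 0 were called by edgeR, with 0 at an unadjusted p under 0.05. *Ifnar1*, the other chain, had log2FC of 0.08 ± 0.06 and 0.06 ± 0.06 at the 2 times.

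For this list and those below, the share of all tested genes called higher was 5.51% at 9 weeks and 3.46% at 15 weeks. An unadjusted p under 0.05, in either direction, was held by 4720 of the 16261 tested genes at 9 weeks and 5559 at 15 weeks. Among 17 nucleic acid sensors and adaptors 5 rose at 9 weeks and 2 at 15 weeks. They were *Zbp1*, a sensor of left-handed nucleic acid (2.25 ± 0.19 at 9 weeks, adjusted p = 2.25e-05 at 15 weeks), *Irf5* (1.17 ± 0.29), *Tmem173*, which encodes the adaptor STING (1.10 ± 0.26), *Dhx58* (0.94 ± 0.14 and 0.49 ± 0.14) and *Ddx58*, the RNA sensor RIG-I (0.54 ± 0.12). All 5 genes of ISG15 conjugation rose at 9 weeks. Beside the member pair of modifier and protease they were the ligase *Herc6* (1.43 ± 0.22), the conjugating enzyme *Ube2l6* (1.31 ± 0.14) and the activating enzyme *Uba7* (0.61 ± 0.11). All but *Uba7* (0.29 ± 0.11) were called at 15 weeks. *Herc6*, *Ube2l6* and *Uba7*, like *Zbp1*, *Dhx58* and *Ddx58*, are also on the list of other interferon-stimulated genes below, so these lists are not separate evidence. Of 8 inhibitors of interferon signalling 3 rose at both times, *Usp18*, *Socs1* (2.14 ± 0.25 and 1.52 ± 0.25) and *Socs3* (2.14 ± 0.25 and 1.07 ± 0.24), and *Irf2*, a repressor at the ISRE, fell by 0.41 ± 0.12 at 15 weeks. *Usp18* is a member and *Socs1* is also among the genes led by interferon-gamma below, so these counts overlap.

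Of 44 other interferon-stimulated genes 42 were tested, and 35 rose at 9 weeks and 22 at 15 weeks, with 0 called lower by edgeR (41 and 33 of the 42 had an unadjusted p under 0.05). The largest called changes at 9 weeks were those of *Ifit2* (4.44 ± 0.40), *Ifi44* (3.02 ± 0.32), *Oas2* (2.51 ± 0.30) and *Zbp1*, which is also on the list of sensors. Their median log2FC was 0.92 at 9 weeks and 0.55 at 15 weeks, and 10 of the 42 fell between 9 and 15 weeks (background 1.91%). Of 19 tested genes led by interferon-gamma, 19 rose at 9 weeks, with a median of 3.06, and 14 at 15 weeks, with a median of 1.52. They included *Cxcl9*, a chemokine that draws T cells (5.23 ± 0.53), the GTPases *Iigp1* (5.04 ± 0.59) and *Tgtp1* (5.01 ± 0.67), and *Nlrc5*, which drives MHC class I genes (4.51 ± 0.40). Between 9 and 15 weeks 15 of the 19 fell (background 1.91%), with a median of -1.34, beside a median of -0.27 for the members. Many of these genes are known to answer to both kinds of interferon.

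**Figure D5:**
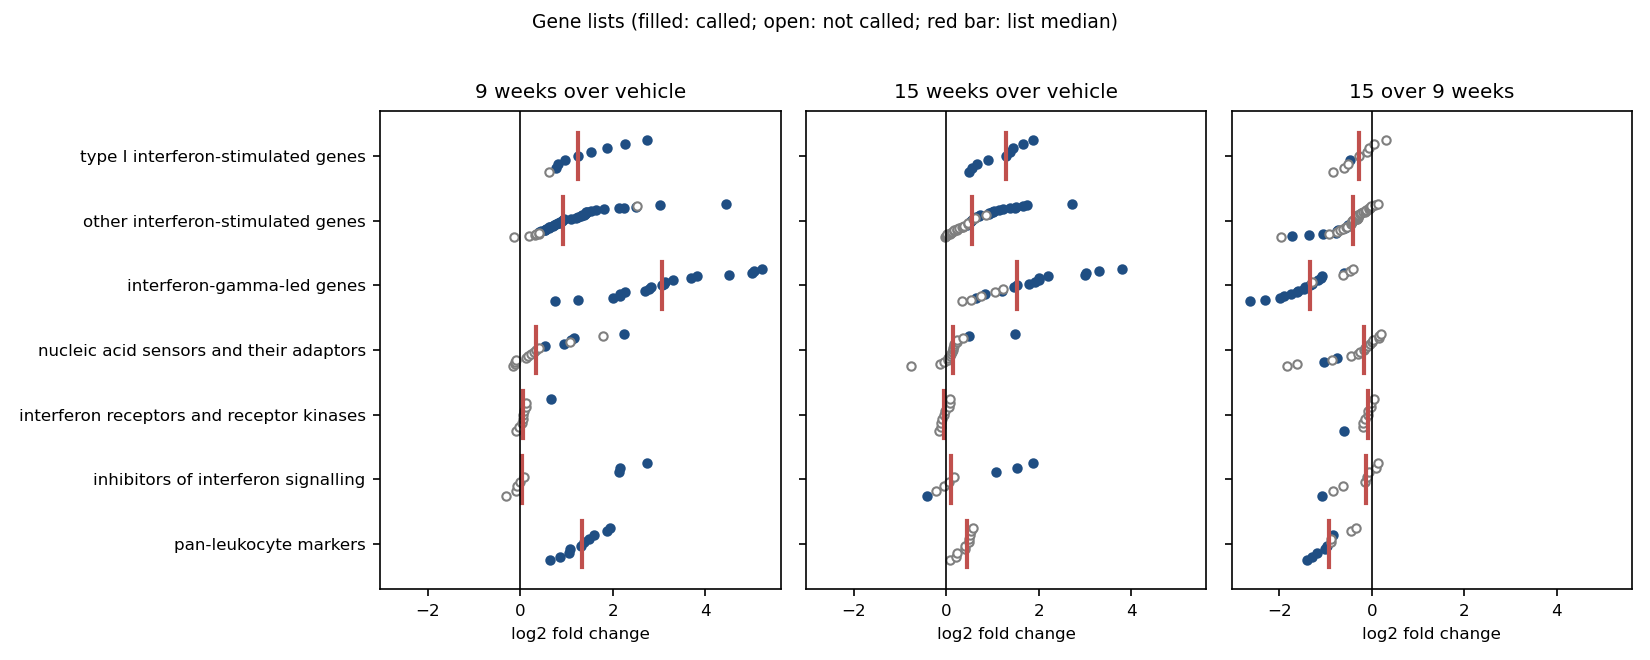
log2FC of single genes (points, filled where called) in 7 lists for 9 weeks over vehicle, 15 weeks over vehicle and 15 over 9 weeks, sexes pooled, with the list median as a red bar. The interferon-gamma-led list has a median of 3.06 at 9 weeks and -1.34 between the times, the members 1.24 and -0.27, and the pan-leukocyte markers 1.34 and -0.93.

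Leukocyte markers moved with the members at 9 weeks. All 10 pan-leukocyte markers rose at 9 weeks and 0 of 10 were called by edgeR at 15 weeks (1 at an unadjusted p under 0.05), and their summed level was 48.0 to 125 CPM in vehicle, 92.4 to 295 CPM at 9 weeks and 56.6 to 171 CPM at 15 weeks, with none of the 10 at 0. With the covariate of these markers, 5 members were called at 9 weeks with the sexes pooled (*Usp18* 2.31, *Isg15* 1.78, *Ifit1* 1.88, *Oasl2* 1.64 and *Irf9* 0.71), 0 in females and 8 in males, and 9 at 15 weeks. Of 8 genes listed as markers of plasmacytoid dendritic cells, known producers of type I interferon, 7 were tested. At 9 weeks 2 rose (*Bst2* and *Ly6d*) and 1 fell (*Klk1*), beside 5.51% and 2.78% of tested genes. Without male vehicle replicate 1, 3 rose and 1 fell. The 8 genes summed to 697 to 1805 CPM in vehicle and 690 to 1438 CPM at 9 weeks. In vehicle this is far above the 48.0 to 125 CPM of the 10 pan-leukocyte markers, so the sum cannot be read as a level of these cells. *Bst2* is itself an interferon-stimulated gene. By edgeR 4 of 10 macrophage markers were called higher at 9 weeks (7 without male vehicle replicate 1), 4 of 7 neutrophil, 2 of 8 T cell and 0 of 8 B cell markers. Beside them stood 1 of 10 for epithelium (*Krt20*), 0 of 10 for mesenchyme and 0 of 8 for endothelium, and 5.51% of all tested genes. At an unadjusted p under 0.05 there were 3 B cell, 0 mesenchyme and 0 endothelial markers, beside 4720 of the 16261 tested genes. The summed macrophage markers ranged over 31.1 to 246.1 CPM in vehicle and 72.5 to 319.5 CPM at 9 weeks, and the neutrophil markers over 12.5 to 196.5 CPM and 9.91 to 214.4 CPM. The T cell markers ranged over 6.84 to 20.6 CPM and 13.2 to 32.5 CPM, and the B cell markers over 2.88 to 61.0 CPM and 7.50 to 123.9 CPM. The 2 conditions overlapped in all 4 sums, in which the most abundant genes of a list weigh most. Gene by gene, the median log2FC at 9 weeks was 1.25 for macrophage, 5.08 for neutrophil, 1.15 for T cell and 1.04 for B cell markers. At an unadjusted p under 0.05 there were 8 of 10, 6 of 7, 8 of 8 and 3 of 8, beside the same 4720 of 16261 tested genes. *Mmp8*, a neutrophil collagenase, was at 0 in all vehicle libraries. In males 4 of 10 mesenchyme markers were called lower at 9 weeks (background 2.88%), with a median log2FC of -1.65, and in females all 10 had a positive log2FC, with a median of 1.86 and 0 called by edgeR (7 at an unadjusted p under 0.05). The interaction had 8 of 10 at an unadjusted p under 0.05 (background 7.41%) and 0 called. Without male vehicle replicate 1, 0 of 10 were called in males (0 at an unadjusted p under 0.05, median -0.37), and 5 interactions had an unadjusted p under 0.05. In males 3 of 10 pan-leukocyte and 1 of 10 macrophage markers were called higher at 9 weeks (background 4.42%), and in females 8 of 10 and 3 of 10 (background 2.42%). Without male vehicle replicate 1 the male counts were 2 and 1. At 15 weeks the T cell markers *Trac* and *Lck* (2 of 8, with 6 at an unadjusted p under 0.05) and the neutrophil markers *S100a8* and *S100a9* (2 of 7, with 4) were called higher. Of the 16261 tested genes 5559 had such an unadjusted p at 15 weeks. The list medians were 0.70 and 1.84. Without male vehicle replicate 1, 3 of 8 T cell and 2 of 8 neutrophil markers were called higher. At 15 weeks 7 of 10 mesenchyme markers and 1 of 8 endothelial markers (*Pecam1*) were called lower, against 3.89% of tested genes, and without male vehicle replicate 1 the counts were 1 and 1. In males alone 9 of 10 mesenchyme markers were called lower at 15 weeks, and 1 without that library. The 3.89% is for the sexes pooled, and the share of tested genes called lower in males at 15 weeks is not given here. With the epithelial markers as a covariate 6 members were called at 15 weeks and 4 in males. The part of cell content in the members' changes was not tested beyond these fits.

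The genes whose log2 CPM was most like the mean z score of the 9 members over the 30 libraries were *Rtp4* (r = 0.95), *Lgals9* (0.94), *Oas3* (0.94), *Zbp1* (0.93), *Oas2* (0.93), *Gm12250* (0.93), *Ube2l6* (0.93), *Apol9b* (0.92), *Apol9a* (0.92) and *Ifi47* (0.90). Of these 10, 5 were on the list of other interferon-stimulated genes. With group means removed the first 10 were *Lgals9* (0.87), *Rtp4* (0.86), *Xaf1* (0.81), *Apol9a* (0.79), *Oas3* (0.79), *Apol9b* (0.79), *Psme2* (0.79), *Zbp1* (0.78), *Gm12250* (0.77) and *Ido1* (0.76), and 7 genes were in both sets. *Apol9a* and *Apol9b* are near-identical copies, and their counts may be split between them. *Rtp4*, an interferon-induced transmembrane protein, measured 4.72 to 15.0 CPM in vehicle, 19.5 to 42.8 CPM at 9 weeks and 13.1 to 38.7 CPM at 15 weeks. Its 9-week and vehicle libraries did not overlap (background 0.935%). As *Rtp4* was picked for its likeness to the members over these libraries, this is not a separate result.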

How the data were processed

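RNA-seq libraries (Illumina TruSeq Stranded mRNA, poly(A)) of 30 mice were analysed from processed files. The authors trimmed paired reads with Trim Galore, aligned them to GRCm38 with STAR, and deposited raw counts per gene from featureCounts, without normalization. FPKM and TPM were deposited by the authors as StringTie estimates in 1 file per library. The strand setting of the counting is not given in the sources used here. The sources name no removal of duplicate reads, and counts may include copies of one molecule. Groups came from the labels, and depth ran from 9.27 M to 30.8 M counts, which limits genes of few counts. Gene lines repeated in a library's FPKM file (11 to 20 lines) were summed.

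Counts were tested with edgeR 4.0.16 in R 4.3.3, with 1 coefficient per group over all 30 libraries, filterByExpr and TMM factors of 0.832 to 1.10, in 12 comparisons. The pooled comparisons average the sexes. The p-values were adjusted by Benjamini-Hochberg over 16261 genes in each comparison, and SE is that of the log2 fold change. The script was tested on simulated data. The thresholds on adjusted p (0.05), log2 fold change (0.4) and FPKM (1) follow the study's methods, which used DESeq2. Other fits used DESeq2 1.42.0, limma 3.58.1, covariates, a replicate block and each library left out. All 9 members are named, and of each list up to 4 genes called at 9 weeks with the largest changes, ligands, receptors and inhibitors where a level was needed, and the 10 genes most like the members. *Ddx58*, *Uba7*, *Pecam1*, *Lck*, *Mmp8* and *mt-Nd4l* were named after their values were seen. The members and the gene lists, which come from general knowledge, were chosen with earlier results of these data known. Positions are those of the authors' annotation.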

Additional observations from a re-analysis of the deposited data

Results flagged for a closer look

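In 54 sets of a gene and a group of 5 libraries, Dixon's test set 3 libraries apart from the rest of their group at the 95% level, and chance sets apart about 1 in 20 sets. *Oasl2* in male vehicle replicate 1 measured 16.1 CPM, below a group median of 35.6 CPM. *Irf7* in female 9-week replicate 5 measured 470 CPM, above a group median of 131 CPM. *Stat2* in female 15-week replicate 2 measured 85.0 CPM, above a group median of 55.8 CPM.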

How the results depend on the processing

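The count of members called at 9 weeks with the sexes pooled was 8, and 5 with the leukocyte covariate. At 15 weeks it was 9, and 0 on deposited TPM. Between the times it was 1, and 0 with the leukocyte covariate, the epithelial covariate or no filter on low counts, 2 without the fold threshold or on rescaled TPM, and 7 on deposited TPM, which moved the median of the 13115 tested genes with TPM above 0 in every library by -0.64 there. In females at 9 weeks it was 5, and 0 with the leukocyte covariate. In males at 15 weeks it was 9, and 4 with the epithelial covariate, 5 in a fit of the compared groups only and 1 on deposited TPM. In females at 15 weeks it was 0, and 1 by DESeq2. The cause of these changes was not tested. Leaving out 1 library gave members called of 8 to 9 at 9 weeks, 8 to 9 at 15 weeks and 0 to 3 between the times with the sexes pooled, 6 to 8 and 5 to 9 in males at 9 and 15 weeks, and 5 and 0 in females in every fit. With the replicate block, at 15 weeks 8 members were called, and no call of another member changed. The numbers did not pair libraries: of 75 pairs of the same number in different groups 12 had a correlation of deviations over 0.1, with a median of -0.0262. Between the times *Ifit3* turned to -0.000357 with the replicate block, -0.34 with the leukocyte covariate, -0.065 with the epithelial covariate, -0.55 on deposited TPM and -0.074 on rescaled TPM, and *Irf7* to -0.14 with the leukocyte covariate and -0.29 on deposited TPM. With 1 library left out *Ifit3* ran from -0.16 to 0.15, *Ifit1* from -0.17 to 0.030 and, in females at 9 weeks, *Irf7* from -0.43 to 0.54. DESeq2 size factors, the FPKM minimum and the additive model moved no count by over 1.5 times. Depth limits *Usp18*, with as few as 5 counts in a library, and the ligands.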
